A study of Mus musculus with 10 samples.

Results

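Mouse MC3T3-E1 cells that received β-ecdysterone at 150 µM were compared with cells that received 100 or 200 µM, to ask whether the middle dose stood apart from its neighbours. The 6 libraries were taken by their labelled dose and day, with 1 library per dose on day 5 and 1 on day 10, and they are 6 of the 10 libraries in the series. The 150 µM group held 2 libraries, and the 100 µM and 200 µM groups held 2 each. All had grown in the same standard medium with the compound for 5 or 10 days, and 2 libraries at 0 µM, again 1 per day, gave the level without it. The last 2 libraries are labelled untreated with no day, and their values are given only where named. RNA was enriched for poly(A) transcripts and read counts per gene were used.

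MC3T3-E1 is a line of pre-osteoblasts from the skull of newborn C57BL/6 mice, and subclone 14 was used, so every library comes from 1 clonal line. The labels also give bone marrow mesenchymal stem cells as the source, which is another cell type. The protocol gives an n of 3 for the RNA extraction, but the files hold a single library per dose and day, and no source says that the libraries came from separate cultures. The p-values below therefore measure only the spread between these libraries, and the tests of 150 µM against both neighbours count the difference between 100 and 200 µM as spread.

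β-Ecdysterone is an insect moulting hormone that many plants also make, and its action on mammalian bone cells is studied for bone repair. Osteoblast formation is driven by bone morphogenetic proteins (BMPs), whose receptors phosphorylate Smad proteins that act with the transcription factors Runx2 and osterix (gene Sp7), and by Wnt signals. Maturing cells lay down type I collagen, then alkaline phosphatase, osteopontin and bone sialoprotein, and their mitochondria supply the energy through a respiratory chain that is encoded in part by mitochondrial DNA.

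The library totals were unequal between doses. On day 5 the totals were 29833654 counts at 100 µM, 57220036 at 150 µM and 29637936 at 200 µM. On day 10 they were 27108562, 58218009 and 53666325 counts in the same order, and the 0 µM libraries held 48951468 and 31300928. The 150 µM library was thus the deepest on each day, although on day 10 the 200 µM library came close to it. Genes with at least 1 count numbered 20233, 22518 and 20296 on day 5 and 19849, 21649 and 21683 on day 10, from 100 to 200 µM. After counts were drawn at random to bring each library near 27108562, the smallest total, which left from 27107324 to 27110853 counts, they were 20198, 21853 and 20266 on day 5 and 19849, 21024 and 21111 on day 10. At equal depth the 150 µM library still had the most genes on day 5, and the 200 µM library had slightly more on day 10. Counts were scaled to edgeR's CPM, for which each library's total is multiplied by a factor from the trimmed mean of M values (TMM). The factors ran from 0.924 at 150 µM on day 10 to 1.06 at 150 µM on day 5, so CPM sums differ between libraries. CPM is the unit of every level below unless another is named. An observation of 3 counts corresponds to 0.0515 CPM of the unscaled total in the 150 µM library of day 10 and 0.111 CPM in the 100 µM library of day 10.

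The cells carried osteoblast markers at all treated doses. The 8 markers of that type (Runx2, Sp7, Alpl, Col1a1, Col1a2, Ibsp, Bglap and Pth1r) summed to 23059.8, 15434 and 22379 CPM on day 5 and 23565, 32169 and 27695 CPM on day 10, from 100 to 200 µM, with Col1a2 the most abundant. The 150 µM sum was the lowest of the doses on day 5 and the highest on day 10, and most of it came from Col1a1 and Col1a2. At 0 µM the sums were 20069 CPM on day 5 and 24562 CPM on day 10, but Alpl and Ibsp were close to absent there, as given below. Against 0 µM the median log2 fold change of the 8 markers was 1.86, 2.85 and 2.49 at 100, 150 and 200 µM. Gene by gene, 3 of the 8 were lowest and 3 highest at 150 µM on day 5. Of all 16664 genes tested, 5906 were lowest and 6443 highest there, so the markers were near the share of all genes. Their median log2 difference from the neighbours was 0.17 on day 5 and 0.42 on day 10, against 0.018 and 0.011 over all genes. Markers of fat, muscle, endothelial and epithelial cells were low in all 8 libraries with a labelled dose. The 8 adipocyte markers summed to between 3.46 and 5.82 CPM, with the largest part from Fabp4. The 8 muscle markers summed to between 2.7 and 17.9 CPM (Des), the 6 endothelial markers to between 1.6 and 7.98 CPM (Vwf) and the 7 epithelial markers to between 0.273 and 1.48 CPM (Cdh1), with Krt18 at 0 counts. The muscle and endothelial sums were highest at 150 µM on each day, and their part in other results was not tested. The 9 markers of macrophages or osteoclasts summed to between 96.8 and 369.9 CPM, of which the protease gene Ctsk made up most (a mean of 176 CPM), and Tyrobp was at 0 counts. The 6 chondrocyte markers, led by Sox9, summed to between 85.9 and 166 CPM. In RNA from whole cultures, fewer cells of a type and less RNA per cell cannot be told apart.

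Across all genes, 1 feature passed the test of 150 µM against its neighbours. It is an unnamed locus, Mus_musculus_newGene_4672, which the authors assembled from the reads, and the files give neither its position nor an annotation for it. Its level was 10.9, 48 and 13.8 CPM at 100, 150 and 200 µM on day 5 and 11.8, 34.2 and 9.11 CPM on day 10. The 150 µM libraries were far above both neighbours on each day, without overlap, and lay near the 0 µM libraries, which held 54.7 and 43.8 CPM. Against 0 µM its log2 fold change was -2.10 at 100 µM (edgeR adjusted p = 0.000306), -0.27 at 150 µM (0.238) and -2.12 at 200 µM (0.000281). In edgeR's quasi-likelihood test, fitted with a term for day, its log2 fold change was 1.84 (SE 0.14, 95% interval 1.52 to 2.17) and its adjusted p was 0.00958, higher in 2 of 2 libraries. This was the single gene of 16664 tested that passed an adjusted p of 0.05 as higher at 150 µM (0.006%), and 0 genes passed as lower (0%). At an unadjusted p under 0.05 there were 863 higher (5.18%) and 1049 lower (6.3%) genes. The 95% interval of a gene's log2 fold change reached 0.33 to either side at the median.

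The count depended on the tool, and DESeq2 passed 65 genes as higher (0.658% of the 9879 to which it gave an adjusted p) and 156 as lower (1.58%) on the same libraries. Of these 221 genes, 11 were mitochondrially encoded and 10 were new loci. All 13 mitochondrially encoded genes were among the 9879. New loci were 2686 of the 16664 genes tested in edgeR, and their number among the 9879 is not given here. The new locus lost its call in edgeR without the day 5 library of 100 µM (adjusted p = 0.0614), of 150 µM (0.111) or of 200 µM (0.0672), and with the depth of the library as a further covariate, chosen after seeing the data (0.115). Depth, here and below, was a class in which both 150 µM libraries and the 200 µM library of day 10 were the deep ones. Without each day 5 library in turn, the log2 fold change of the locus was 1.76, 1.72 and 1.90. It was 2.04 with depth class as a covariate. The count of higher genes was then 0, 0, 0 and 1, the last a different gene, and without the 150 µM library of day 5 a count of 3 genes passed as lower. The new locus kept its call when each day 10 library was left out, with 1 higher gene without 100 µM, 4 without 150 µM and 3 higher and 5 lower without 200 µM, and after thinning to equal depth (edgeR adjusted p = 0.012), where a predicted gene, Gm7324, passed as well (0.0282). Gm7324 lies at chr14:43697828-43715378, where positions here and below are those of GENCODE M21 on the mouse build GRCm38, and the build behind the deposited table is not given in the sources used here. It was named after its values were seen and had 1.95, 7.76 and 2.43 CPM at 100, 150 and 200 µM on day 5 and 3.63, 12.5 and 2.27 CPM on day 10, so both 150 µM values were above the other 4, and its edgeR adjusted p without thinning was 0.0634. It also passed in edgeR with every gene of at least 1 count in total tested (adjusted p = 0.000263), with library totals in place of TMM (0.0365) and without the 200 µM library of day 10 (0.047). Without the day term the new locus, too, did not pass (log2 fold change 1.86, edgeR adjusted p = 0.187).

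Among the genes with the smallest p-values that did not pass, the next 3 were chosen after their values were seen. Clec11a (osteolectin, a secreted growth factor for bone-forming cells, chr7:44302687-44306902) had 232, 111 and 222 CPM at 100, 150 and 200 µM on day 5 and 224, 127 and 173 CPM on day 10, against 43.4 and 65.7 CPM at 0 µM. Both 150 µM values were below all 4 values of the neighbours and above both values at 0 µM (log2 fold change -0.83, SE 0.13, edgeR adjusted p = 0.326, DESeq2 adjusted p = 9.15e-06). Clec11a passed in edgeR without the 200 µM library of day 10 (adjusted p = 0.047) and with every gene of at least 1 count in total tested (0.00619). With depth as a covariate, chosen after seeing the data, its log2 fold change was -0.50. Rhob, a small GTPase of the actin cytoskeleton, had 176, 116 and 169 CPM at 100, 150 and 200 µM on day 5 and 159, 108 and 142 CPM on day 10. It was lower at 150 µM without overlap (log2 fold change -0.52, SE 0.088, edgeR adjusted p = 0.326, DESeq2 adjusted p = 7.79e-05), and it passed in edgeR with that same wider set of genes (adjusted p = 0.0483). Zfp703, a transcriptional repressor, had 84.1, 62.4 and 92.5 CPM at 100, 150 and 200 µM on day 5 and 110.3, 79.3 and 113 CPM on day 10, and again the groups did not overlap (log2 fold change -0.49, SE 0.081, edgeR adjusted p = 0.326, DESeq2 adjusted p = 7.28e-05). For each of these genes 150 µM lay between 0 µM and the other doses.

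Genes of the mitochondrial genome took a larger share of the counts at 150 µM on each day. Their share was 4.52% at 100 µM, 5.99% at 150 µM and 4.77% at 200 µM on day 5. On day 10 it was 6.7%, 10.6% and 7.47%, and at 0 µM it was 4.53% on each day. Each share has a Wilson 95% interval of at most 0.0094 percentage points to either side, which covers counting error only. Within a day 150 µM was the highest, but over both days the groups overlapped, since both neighbours on day 10 exceeded 150 µM on day 5. The mean was 8.31% ± 3.27 (SD, n = 2) at 150 µM and 5.87% ± 1.44 (SD, n = 4) at the other doses. The difference was 2.44 percentage points, 1.34 on day 5 and 3.54 on day 10. An exact two-sided permutation test that exchanged doses within days gave p = 0.111, the smallest that its 9 arrangements allow, so it could not reach 0.05. On day 10 the libraries of 150 and 200 µM had nearly the same depth and held 10.6% and 7.47%, and the part of depth in these shares was not tested.

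**Figure D1:**
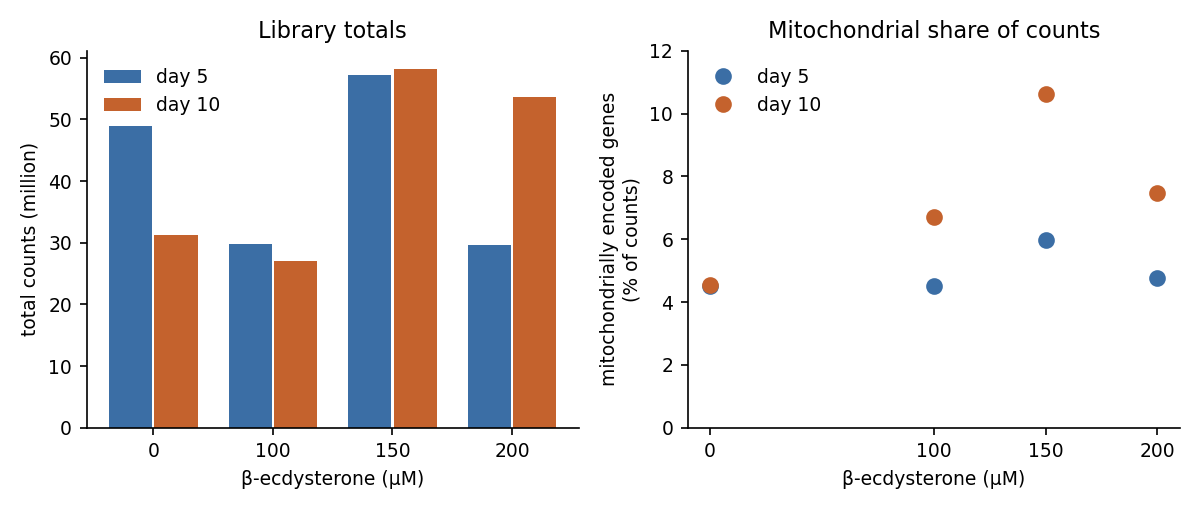
Total counts (left, bars) and the percentage of counts from mitochondrially encoded genes (right, points) against the dose of β-ecdysterone in µM, 1 library per dose and day, without error bars. The 150 µM library was the deepest and had the highest mitochondrial share on both days.

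All 13 protein-coding genes of the mitochondrial genome had a positive log2 fold change at 150 µM, from 0.17 (mt-Nd3) to 1.01 (mt-Atp8), with a median of 0.55 against 0.0096 over all genes tested. The median ran from 0.43 (without 150 µM of day 10) to 0.62 (without 150 µM of day 5) when 1 library was left out. With depth as a covariate, chosen after seeing the data, the median was 0.55, and after thinning it was 0.55. Of the 13, 12 were highest at 150 µM on both days, where 17.7% of all genes tested were, and mt-Nd3 was the exception. In edgeR 0 passed (adjusted p from 0.157 to 0.721), while 12 had an unadjusted p under 0.05 and 11 passed in DESeq2 (over all genes 11.5%, and 2.24% of those with a DESeq2 adjusted p). The number at an unadjusted p under 0.05 in edgeR was 1 without the day term and 8 with depth as a covariate. With every gene of at least 1 count in total tested, 5 passed in edgeR, namely mt-Atp8 (adjusted p = 0.000486), mt-Nd6 (0.0127), mt-Nd4l (0.0202), mt-Atp6 (0.0383) and mt-Nd2 (0.0409). By FPKM, the authors' unit that scales fragments by gene length and depth, the most abundant were mt-Co1, mt-Cytb and mt-Co2. mt-Co1, a subunit of cytochrome c oxidase, had 20231, 22215 and 18994 CPM at 100, 150 and 200 µM on day 5 and 27617, 48851 and 32859 CPM on day 10 (log2 fold change 0.45, SE 0.15, edgeR adjusted p = 0.354). mt-Cytb, of complex III, had 5147, 7121 and 5401 CPM at 100, 150 and 200 µM on day 5 and 8179.7, 12622 and 8566 CPM on day 10 (log2 fold change 0.52, SE 0.11, edgeR adjusted p = 0.326). mt-Co2 had 3082, 3629 and 3379 CPM at 100, 150 and 200 µM on day 5 and 4702, 6579.5 and 4952 CPM on day 10 (log2 fold change 0.32, SE 0.11, edgeR adjusted p = 0.362). In these 3 genes 150 µM was highest within each day, but its day 5 value was below those of both neighbours on day 10. mt-Atp8, a small subunit of ATP synthase (chrM:7766-7969) whose sequence overlaps mt-Atp6, had 421, 776 and 482 CPM at 100, 150 and 200 µM on day 5 and 877, 1870.3 and 736 CPM on day 10 (log2 fold change 1.01, SE 0.13, edgeR adjusted p = 0.157). The levels at 150 µM were 0.80 log2 units above the mean of the neighbours on day 5 and 1.22 on day 10.

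Nuclear genes of the respiratory chain had a median near that of all genes. Of 46 tested, 0 passed in edgeR, 7 had an unadjusted p under 0.05 and 1 of 45 with an adjusted p passed in DESeq2, while over all genes these shares were 11.5% and 2.24%. By sign, 25 were higher (against 51.6% of all genes) and 21 lower at 150 µM, and their median log2 fold change was 0.018. Ndufa1, a subunit of complex I with the smallest p of the list, had 17.2, 14.1 and 21.2 CPM at 100, 150 and 200 µM on day 5 and 22.6, 12.1 and 17.6 CPM on day 10 (log2 fold change -0.58, SE 0.15, edgeR adjusted p = 0.326), with both 150 µM values below the other 4. Genes of ribosomes and translation (41 tested, 3 at an unadjusted p under 0.05, 0 of 41 passing in DESeq2, median 0.076) were positive in 31 of 41 (against 51.6% of all genes), and Rpl7, a ribosomal protein, had the smallest p (log2 fold change 0.23, SE 0.10, edgeR adjusted p = 0.415). Across fits with 1 library left out the medians ran from -0.082 (without 150 µM of day 5) to 0.094 (without 150 µM of day 10) for the nuclear respiratory genes and from 0.047 (without 100 µM of day 5) to 0.11 (without 200 µM of day 5) for the translation list. With depth as a covariate, chosen after seeing the data, the medians were -0.022 for the nuclear respiratory genes and 0.015 for the translation list. Leaving the mitochondrially encoded genes out before scaling gave the same counts over the remaining genes, 1 higher and 0 lower. The 1 was again the new locus Mus_musculus_newGene_4672, whose position is not given.

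The genes behind the study's osteogenic readouts were tested next, with its reference gene Gapdh. The study compared doses by enzyme activity, collagen staining and protein blots, which included phosphorylated Smad proteins. Those readouts were in part taken on other days or in osteoblast induction medium. The mRNA levels here, from standard medium, are another measure, and Smad phosphorylation is not seen in RNA. Of the 10 genes 9 could be tested, and 0 passed in edgeR, 0 in DESeq2 and 0 at an unadjusted p under 0.05. Over all genes 0.006% passed as higher and 0% as lower in edgeR, and 11.5% had an unadjusted p under 0.05. DESeq2 passed 2.24% of those with an adjusted p, so 0 among 9 genes does not set them apart. Of the 8 tested without Gapdh, 4 were positive (against 51.6% of all genes) and 4 negative, with a median log2 fold change of 0.019. With Gapdh, which was negative, the median was -0.016. Over these 9 genes it ran from -0.12 to 0.073 with 1 library left out (150 µM of day 10 and of day 5). Alpl, which encodes alkaline phosphatase, had 16.1, 29.3 and 33.1 CPM at 100, 150 and 200 µM on day 5 and 52.1, 64.4 and 60.9 CPM on day 10, while at 0 µM it had 0 counts on day 5 and 2 on day 10. At 150 µM it was between its neighbours on day 5 and highest by a small margin on day 10 (log2 fold change 0.23, SE 0.23, edgeR adjusted p = 0.714). With 1 library left out the log2 fold change of Alpl ran from 0.042 (without 100 µM of day 5) to 0.48 (without 200 µM of day 5). With depth as a covariate it was 0.077. Spp1, the gene of osteopontin, had 812, 1149 and 798 CPM at 100, 150 and 200 µM on day 5 and 1636, 1531 and 1365 CPM on day 10, so it was highest at 150 µM on day 5 and between the neighbours on day 10 (log2 fold change 0.29, SE 0.14, edgeR adjusted p = 0.458). Runx2 (chr17:44495987-44814797) had 198, 188 and 211 CPM at 100, 150 and 200 µM on day 5 and 217, 250.2 and 259 CPM on day 10. The 150 µM value was the lowest of the doses on day 5, between them on day 10, and above 0 µM on both days, where Runx2 was at 93.3 and 87.6 CPM (log2 fold change -0.016, SE 0.10, edgeR adjusted p = 0.961). Sp7 had 52.3, 55.4 and 61.2 CPM at 100, 150 and 200 µM on day 5 and 69, 133 and 114 CPM on day 10, with overlapping groups (log2 fold change 0.27, SE 0.19, edgeR adjusted p = 0.61), and the 95% interval of its log2 fold change ran from -0.17 to 0.71.

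Type I collagen took opposite places on the days. Col1a1 (chr11:94936224-94953042) had 9903, 5935 and 9798 CPM at 100, 150 and 200 µM on day 5 and 8814, 11420.0 and 10161 CPM on day 10. At 150 µM it was the lowest of the doses on day 5 and the highest on day 10. Its difference from the mean of the neighbours was -0.72 log2 units on day 5 and 0.27 on day 10, and the test of that change gave an edgeR adjusted p of 0.532 (unadjusted 0.00232 in the same model). Col1a2, the other chain, had 12801, 8969 and 12159 CPM at 100, 150 and 200 µM on day 5 and 14090.0, 19398 and 16199 CPM on day 10, the same order (-0.46 and 0.36, edgeR adjusted p = 0.685 for the change). Over both days neither passed (Col1a1 -0.20, edgeR adjusted p = 0.73, and Col1a2 -0.033, 0.957).

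For Smad1 and Smad5, which carry BMP signals, the dose groups overlapped. Smad1 had 23.6, 20.4 and 25.3 CPM at 100, 150 and 200 µM on day 5 and 20, 20.7 and 22.5 CPM on day 10 (log2 fold change -0.14, SE 0.11, edgeR adjusted p = 0.625), with a 95% interval from -0.39 to 0.10. Smad5 had 44, 54.6 and 53.4 CPM at 100, 150 and 200 µM on day 5 and 54.2, 53.2 and 57.7 CPM on day 10 (log2 fold change 0.054, SE 0.11, edgeR adjusted p = 0.868), with a 95% interval from -0.19 to 0.29. In both genes the 150 µM values lay within or just outside the range of the neighbours. Bmp2 (chr2:133552159-133562885) had 0 counts in the 6 libraries and 2 counts in 1 of the 0 µM libraries, so it was not detectable at this depth and could not be tested. Gapdh, a glycolytic enzyme often used as a reference gene, had 16.5, 12.1 and 14.2 CPM at 100, 150 and 200 µM on day 5 and 17, 13.3 and 13.3 CPM on day 10 (log2 fold change -0.25, SE 0.14, edgeR adjusted p = 0.52), below the 60.8 and 75.8 CPM of 0 µM. Its counts are uncertain because the mouse genome holds many near-identical Gapdh pseudogenes.

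**Figure D2:**
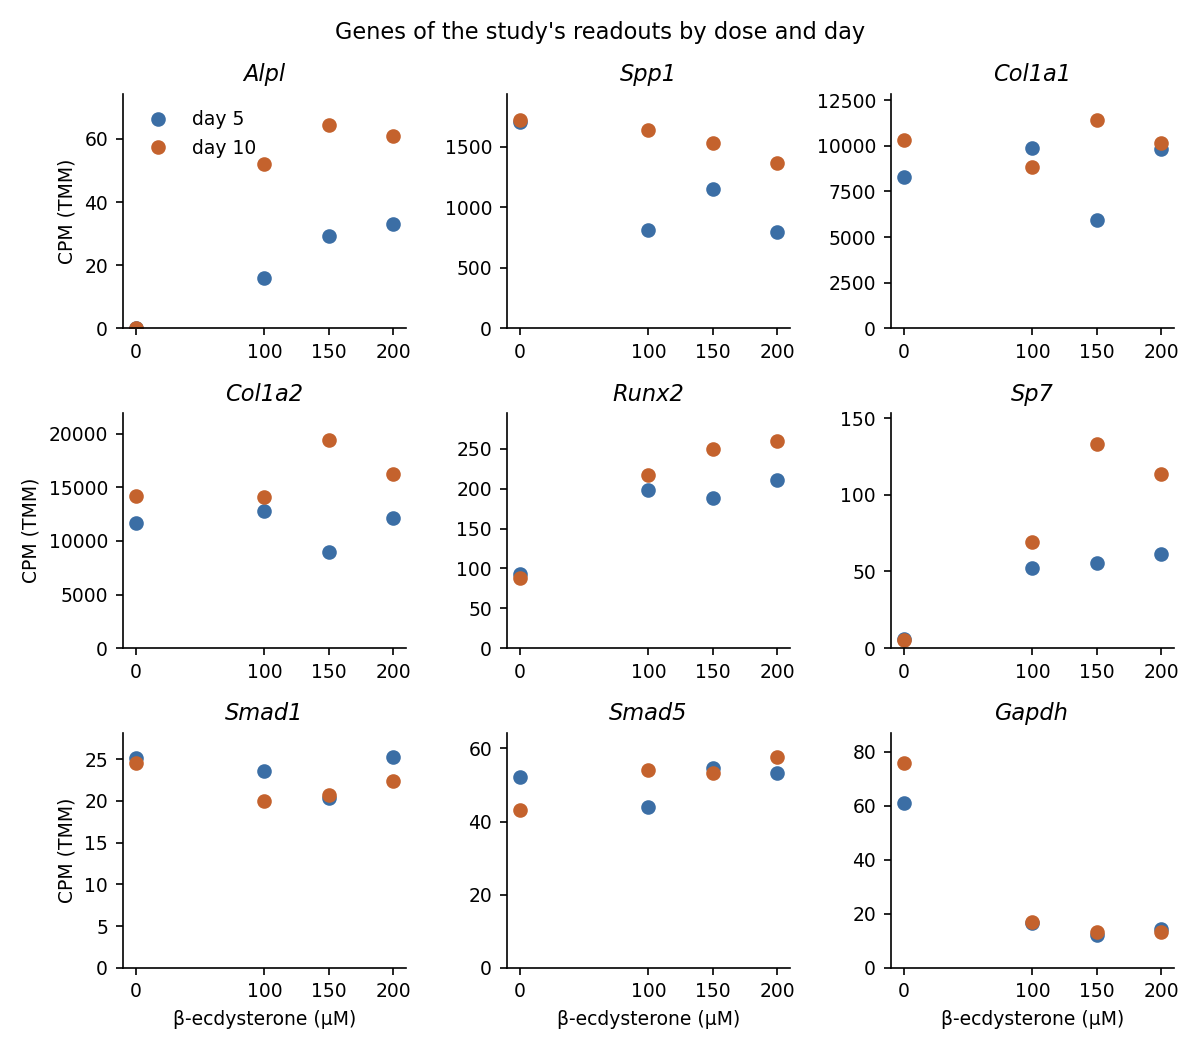
CPM (TMM-scaled, linear axes from 0) of 9 genes against the dose of β-ecdysterone in µM, 1 point per library, day 5 in blue and day 10 in orange, without error bars. At 150 µM Col1a1 and Col1a2 were lowest of the 3 treated doses on day 5 and highest on day 10. In edgeR's test of 150 µM against its neighbours 0 of the 9 genes passed, and 1 of all 16664 genes tested.

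Of 30 gene lists, 0 held a member that passed in edgeR's test of 150 µM against both neighbours with the filter used and all libraries, so each is described by counts and by its median log2 fold change beside the 0.0096 of all genes. Over all genes tested, 11.5% had an unadjusted p under 0.05 in edgeR, and DESeq2 passed 2.24% of those to which it gave an adjusted p, which are the genes counted for it in each list. Genes of osteoblast matrix and mineral (25 tested, 3 at an unadjusted p under 0.05, 0 of 18 passing in DESeq2, median 0.29) were positive in 19 of 25 (against 51.6% of all genes), with medians of 0.27 on day 5 and 0.31 on day 10. Ibsp, bone sialoprotein (chr5:104299171-104311469), led them with 72.9, 230.3 and 95.9 CPM at 100, 150 and 200 µM on day 5 and 273, 801 and 798 CPM on day 10, against 0.666 and 0.849 CPM at 0 µM. The 150 µM value was the highest on day 5 and practically equal to that of 200 µM on day 10, and both neighbours on day 10 exceeded 150 µM on day 5 (log2 fold change 1.04, SE 0.36, edgeR adjusted p = 0.354). Without the 200 µM library of day 10 Ibsp passed, with a log2 fold change of 1.49 (edgeR adjusted p = 0.0266), and with depth as a covariate, chosen after seeing the data, its log2 fold change was -0.011. With depth as a covariate the median of this list was 0.032, a fit in which the depth of 200 µM on day 10 alone separates depth from dose. With at least 10 counts required in every library the median of this list was 0.15 over 21 genes. The 8 osteoblast markers had a median of 0.25, and of -0.0085 with depth as a covariate. With 1 library left out the medians ran from 0.18 (without 100 µM of day 10) to 0.30 (without 150 µM of day 5) for matrix and mineral and from 0.11 (without 150 µM of day 10) to 0.42 (without 200 µM of day 5) for the osteoblast markers.

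Osteoblast transcription factors (20 tested, 6 at an unadjusted p under 0.05, 1 of 15 passing in DESeq2, median -0.11) were negative in 12 of 20 (against 48.4% of all genes), and their median was -0.035 with at least 10 counts required in every library. Sox9, the regulator of cartilage formation, had 81.9, 56.6 and 76 CPM at 100, 150 and 200 µM on day 5 and 85.6, 67.4 and 86 CPM on day 10, below both neighbours on each day (log2 fold change -0.41, SE 0.082, edgeR adjusted p = 0.326, DESeq2 adjusted p = 0.00542). Of the BMP pathway (26 tested, 4 at an unadjusted p under 0.05, 1 of 20 passing in DESeq2, median -0.0047), 13 were positive and 13 negative (against 48.4% of all genes). Its smallest p was that of Grem1, a secreted BMP antagonist, with 11.9, 17.1 and 12.5 CPM at 100, 150 and 200 µM on day 5 and 12, 17.7 and 10.4 CPM on day 10, above the other 4 libraries in both cases (log2 fold change 0.58, SE 0.12, edgeR adjusted p = 0.326, DESeq2 adjusted p = 0.0114). At 0 µM Grem1 was at 72.3 and 64.9 CPM, so 150 µM lay on the 0 µM side of its neighbours. BMP target genes (16 tested, 3 at an unadjusted p under 0.05, 0 of 10 passing in DESeq2, median 0.015) had medians of -0.31 on day 5 and 0.37 on day 10, and 8 of 16 had an unadjusted p under 0.05 for that change, against 5.28% of all genes, with 0 passing. Smad9, a BMP receptor Smad that is itself induced by BMP, had 12.8, 16.7 and 16.2 CPM at 100, 150 and 200 µM on day 5 and 11.7, 24.2 and 15.4 CPM on day 10, with both 150 µM values above the other 4 (log2 fold change 0.54, SE 0.18, edgeR adjusted p = 0.354). The medians ran from -0.18 (without 150 µM of day 10) to -0.018 (without 200 µM of day 10) for the transcription factors, from -0.056 (without 150 µM of day 10) to 0.092 (without 150 µM of day 5) for the BMP pathway and from -0.33 (without 150 µM of day 10) to 0.37 (without 150 µM of day 5) for BMP targets when 1 library was left out.

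Of the Wnt pathway (41 tested, 9 at an unadjusted p under 0.05, 3 of 28 passing in DESeq2, median -0.066), 26 of 41 were negative (against 48.4% of all genes), while 11.5% of all genes had an unadjusted p under 0.05 and 2.24% of those with a DESeq2 adjusted p passed. Fzd2, a Wnt receptor (chr11:102604396-102608058), had 46.7, 33.6 and 47.7 CPM at 100, 150 and 200 µM on day 5 and 46.9, 34.1 and 43.1 CPM on day 10 and was lowest at 150 µM on both days (log2 fold change -0.44, SE 0.086, edgeR adjusted p = 0.326, DESeq2 adjusted p = 0.00616). Wif1, a secreted Wnt inhibitor, had 6.84, 15.2 and 11.4 CPM at 100, 150 and 200 µM on day 5 and 47.4, 163 and 109 CPM on day 10, with 10 and 5 counts at 0 µM (log2 fold change 0.91, SE 0.29, edgeR adjusted p = 0.348). Wif1 was highest at 150 µM within each day, with both neighbours on day 10 above 150 µM on day 5. Among collagens and their crosslinking enzymes (37 tested, 6 at an unadjusted p under 0.05, 4 of 34 passing in DESeq2, median -0.12), 31 of 37 were negative (against 48.4% of all genes) and 13 were lowest at 150 µM on both days, against 16.1% of all genes. Loxl1, a crosslinking amine oxidase, had 15.4, 8.5 and 11.6 CPM at 100, 150 and 200 µM on day 5 and 17.3, 8.78 and 14.8 CPM on day 10 (log2 fold change -0.76, SE 0.16, edgeR adjusted p = 0.326, DESeq2 adjusted p = 0.00616). Across fits with 1 library left out the medians ran from -0.11 (without 200 µM of day 5) to -0.032 (without 200 µM of day 10) for the Wnt pathway and from -0.26 (without 150 µM of day 10) to -0.07 (without 150 µM of day 5) for the collagen list. With depth as a covariate, chosen after seeing the data, the medians were -0.033 for the Wnt pathway and -0.073 for the collagen list.

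Sterol genes (25 tested, 7 at an unadjusted p under 0.05, 1 of 24 passing in DESeq2, median -0.34) were negative in 24 of 25 (against 48.4% of all genes). The median was 0.013 on day 5 and -0.74 on day 10, when 23 of 25 were lowest at 150 µM, against 33.9% of all genes. 19 had an unadjusted p under 0.05 in edgeR for that change, against 5.28% of all genes, and 0 passed. Sqle, squalene epoxidase, was chosen after its values were seen and had 79.1, 81.5 and 69.7 CPM at 100, 150 and 200 µM on day 5 and 118, 52.9 and 100.4 CPM on day 10, highest of the doses at 150 µM on day 5 and lowest on day 10 (edgeR adjusted p = 0.306 for the change). Dhcr7, the enzyme of a last step of cholesterol synthesis, had the smallest p of the list, with 26.2, 20.5 and 22.4 CPM at 100, 150 and 200 µM on day 5 and 37.7, 19.9 and 36.1 CPM on day 10 (log2 fold change -0.55, SE 0.15, edgeR adjusted p = 0.338). Both of its 150 µM values were below the other 4, narrowly so on day 5. With 1 library left out the median ran from -0.74 (without 150 µM of day 5) to -0.0061 (without 150 µM of day 10).

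Interferon-response genes (31 tested, 8 at an unadjusted p under 0.05, 3 of 26 passing in DESeq2, median -0.21) were negative in 30 of 31. Over all genes 48.4% were negative, 11.5% had an unadjusted p under 0.05 and 2.24% of those with a DESeq2 adjusted p passed. Their median was -0.23 on day 5 and -0.20 on day 10, and 17 were lowest at 150 µM on both days, against 16.1% of all genes. Bst2 (tetherin, an antiviral membrane protein) had 38.2, 27.1 and 33.6 CPM at 100, 150 and 200 µM on day 5 and 34.4, 24.3 and 35.6 CPM on day 10 (log2 fold change -0.46, SE 0.10, edgeR adjusted p = 0.326). Both 150 µM values were below the other 4 and above the 17.5 and 21.6 CPM of 0 µM. Targets of steroid receptors, listed because the compound is a steroid (21 tested, 9 at an unadjusted p under 0.05, 2 of 18 passing in DESeq2, median -0.21) were negative in 17 of 21 (over all genes 48.4% negative, 11.5% at an unadjusted p under 0.05 and 2.24% passing in DESeq2 of those with an adjusted p), and 12 were lowest on both days, against the same 16.1%. Cebpd, a transcription factor induced by glucocorticoids, had 144, 59.6 and 115 CPM at 100, 150 and 200 µM on day 5 and 65.7, 45.7 and 55.2 CPM on day 10 (log2 fold change -0.74, SE 0.17, edgeR adjusted p = 0.326, DESeq2 adjusted p = 0.00797). Its day 5 value at 150 µM lay between the neighbours of day 10, so over both days the groups overlapped. With 1 library left out the log2 fold change of Cebpd ran from -1.12 (without 150 µM of day 10) to -0.40 (without 150 µM of day 5). With depth as a covariate, chosen after seeing the data, it was -0.42. The medians ran from -0.27 (without 200 µM of day 5) to -0.18 (without 100 µM of day 5) for the interferon list and from -0.34 (without 150 µM of day 10) to -0.15 (without 150 µM of day 5) for the steroid-receptor targets when 1 library was left out.

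Proliferation genes (40 tested, 3 at an unadjusted p under 0.05, 1 of 40 passing in DESeq2, median 0.16) were positive in 32 of 40 (against 51.6% of all genes), with medians of 0.29 on day 5 and -0.039 on day 10, and the median was -0.057 with depth as a covariate. Ccne2, cyclin E2, had 9.42, 17 and 12.8 CPM at 100, 150 and 200 µM on day 5 and 8.47, 15.4 and 9.02 CPM on day 10 and was highest at 150 µM on both days (log2 fold change 0.72, SE 0.15, edgeR adjusted p = 0.326, DESeq2 adjusted p = 0.00797). At 0 µM it stood at 21.5 and 19.8 CPM. Across fits with 1 library left out the median ran from -0.043 (without 150 µM of day 5) to 0.26 (without 150 µM of day 10).

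The other lists of processes had medians between -0.17 and 0.10, and the gene with the smallest p is given for each. Immediate early genes (25 tested, 6 at an unadjusted p under 0.05, 0 of 18 passing in DESeq2, median -0.17) had the smallest p in Fosl1, a subunit of the transcription factor AP-1, with 7.5, 12.5 and 8.17 CPM at 100, 150 and 200 µM on day 5 and 5.85, 11.9 and 9.32 CPM on day 10 (log2 fold change 0.66, SE 0.18, edgeR adjusted p = 0.339), above the other 4 libraries. At 0 µM Fosl1 was far higher, at 118 and 110.5 CPM. Inflammatory genes (20 tested, 3 at an unadjusted p under 0.05, 0 of 10 passing in DESeq2, median -0.033) had the smallest p in Saa3, an acute-phase protein, with 3.67, 1.21 and 2.59 CPM at 100, 150 and 200 µM on day 5 and 1.33, 0.372 and 0.707 CPM on day 10 (log2 fold change -1.38, SE 0.35, edgeR adjusted p = 0.326), below its neighbours on each day. Saa3 too was far higher at 0 µM, with 96.4 and 80.7 CPM. Clock genes (17 tested, 5 at an unadjusted p under 0.05, 1 of 14 passing in DESeq2, median 0.05) had the smallest p in Nr1d2, a clock repressor, with 34.9, 43.7 and 29.9 CPM at 100, 150 and 200 µM on day 5 and 30.8, 47.2 and 36.2 CPM on day 10 (log2 fold change 0.47, SE 0.10, edgeR adjusted p = 0.326), above the other 4. Genes of Atf4 and endoplasmic reticulum stress (27 tested, 3 at an unadjusted p under 0.05, 1 of 25 passing in DESeq2, median -0.047) had the smallest p in Cebpb, a transcription factor, with 133, 76.2 and 109 CPM at 100, 150 and 200 µM on day 5 and 76.1, 60.8 and 78.4 CPM on day 10 (log2 fold change -0.50, SE 0.11, edgeR adjusted p = 0.326), lowest on each day. The 150 µM level of Nr1d2 lay between 0 µM and the other doses, and that of Cebpb was below all doses of the same day. With 1 library left out the medians ran from -0.31 (without 200 µM of day 5) to -0.071 (without 200 µM of day 10) for immediate early genes, from -0.14 (without 150 µM of day 5) to -0.025 (without 100 µM of day 10) for inflammatory genes, from -0.04 (without 150 µM of day 10) to 0.089 (without 150 µM of day 5) for clock genes and from -0.075 (without 100 µM of day 5) to -0.027 (without 200 µM of day 10) for the Atf4 list. After thinning the median of the immediate early genes was -0.067.

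The heat shock list (15 tested, 5 at an unadjusted p under 0.05, 1 of 13 passing in DESeq2, median 0.10) had the smallest p in Hspa1b, an inducible chaperone, with 53, 33 and 45 CPM at 100, 150 and 200 µM on day 5 and 92.5, 40.4 and 54.3 CPM on day 10 (log2 fold change -0.70, SE 0.20, edgeR adjusted p = 0.342), below the other 4. Genes of hypoxia and glycolysis (36 tested, 6 at an unadjusted p under 0.05, 1 of 27 passing in DESeq2, median -0.079) had the smallest p in Ddit4, a stress-induced inhibitor of mTOR signalling, with 337, 277 and 321 CPM at 100, 150 and 200 µM on day 5 and 272, 191 and 296 CPM on day 10 (log2 fold change -0.40, SE 0.11, edgeR adjusted p = 0.326), lowest on each day. Hspa1b was thus opposite in sign to the median of its list. Genes of the contractile cytoskeleton (22 tested, 4 at an unadjusted p under 0.05, 0 of 19 passing in DESeq2, median -0.044) had the smallest p in Zyx, a protein of focal adhesions, with 279, 172 and 220.4 CPM at 100, 150 and 200 µM on day 5 and 196, 142 and 165 CPM on day 10 (log2 fold change -0.43, SE 0.13, edgeR adjusted p = 0.342), below its neighbours on each day. Nrf2 targets (21 tested, 3 at an unadjusted p under 0.05, 0 of 20 passing in DESeq2, median -0.03) had the smallest p in Hmox1, which degrades heme, with 75, 57.1 and 63.7 CPM at 100, 150 and 200 µM on day 5 and 78.5, 65.2 and 73.9 CPM on day 10 (log2 fold change -0.25, SE 0.093, edgeR adjusted p = 0.376), below its neighbours on each day. Tbp led the housekeeping genes (12 tested, 1 at an unadjusted p under 0.05, 0 of 12 passing in DESeq2, median 0.013), with 49.9, 53.6 and 48.5 CPM at 100, 150 and 200 µM on day 5 and 47.3, 60.5 and 50.4 CPM on day 10 (log2 fold change 0.22, SE 0.084, edgeR adjusted p = 0.374), slightly above the other 4 libraries. The median of the contractile list was -0.22 on day 5 and 0.15 on day 10, and after thinning that of the hypoxia list was -0.026. The medians ran from 0.032 (without 150 µM of day 5) to 0.10 (without 200 µM of day 5) for the heat shock list, from -0.11 (without 150 µM of day 5) to -0.064 (without 100 µM of day 10) for hypoxia and glycolysis, from -0.24 (without 150 µM of day 10) to 0.14 (without 150 µM of day 5) for the contractile list, from -0.12 (without 150 µM of day 10) to 0.0026 (without 100 µM of day 5) for Nrf2 targets and from -0.023 (without 150 µM of day 10) to 0.10 (without 150 µM of day 5) for housekeeping genes when 1 library was left out. The housekeeping and Nrf2 medians were near 0 and had the other sign after thinning, while those of the clock and inflammatory lists did so with depth as a covariate.

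Among markers of other cell types, 0 passed in edgeR, 4 had an unadjusted p under 0.05 and 1 (Sox9) passed in DESeq2. Over all genes 11.5% had an unadjusted p under 0.05, and DESeq2 passed 2.24% of those with an adjusted p. DESeq2 gave an adjusted p to 2 chondrocyte genes and 2 macrophage or osteoclast genes. It gave an adjusted p to 0 of the adipocyte, muscle, endothelial and epithelial genes. Of the marker lists, the 5 tested adipocyte genes had a median of 0.50 (smallest p in Cebpa, log2 fold change -0.44, edgeR adjusted p = 0.592). The log2 fold change of Cebpa was -0.11 after thinning. With 1 library left out it ran from -0.69 (without 150 µM of day 10) to -0.22 (without 150 µM of day 5). For muscle, the 5 tested muscle genes had a median of 0.25 (smallest p in Des, log2 fold change 0.61, edgeR adjusted p = 0.374). For endothelium, the 4 tested endothelial genes had a median of 0.37 (smallest p in Vwf, log2 fold change 0.46, edgeR adjusted p = 0.407). For epithelium, the 2 tested epithelial genes had a median of 0.56 (smallest p in Cdh1, log2 fold change 0.62, edgeR adjusted p = 0.623). For macrophages or osteoclasts, the 4 tested marker genes had a median of -0.24 (smallest p in Lyz2, log2 fold change -0.52, edgeR adjusted p = 0.396). The 4 chondrocyte genes had a median of 0.057, with Sox9 again at the smallest p. Across fits with 1 library left out the medians ran from 0.29 (without 200 µM of day 5) to 0.55 (without 150 µM of day 10) for adipocytes, from 0.12 (without 200 µM of day 10) to 0.47 (without 150 µM of day 10) for muscle, from 0.17 (without 150 µM of day 5) to 0.48 (without 150 µM of day 10) for endothelium, from -0.17 (without 150 µM of day 10) to 1.32 (without 150 µM of day 5) for epithelium, from -0.33 (without 200 µM of day 10) to -0.12 (without 100 µM of day 10) for macrophages or osteoclasts and from -0.46 (without 150 µM of day 10) to 0.14 (without 200 µM of day 10) for chondrocytes. With depth as a covariate, chosen after seeing the data, the median for macrophages or osteoclasts was -0.012, for adipocytes 0.031 and for chondrocytes -0.17. In the same fit it was 0.15 for endothelium, 0.42 for muscle and 0.76 for epithelium. After thinning the muscle median was 0.39. With at least 10 counts required in every library, the adipocyte and chondrocyte medians were -0.059 and -0.028.

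**Figure D3:**
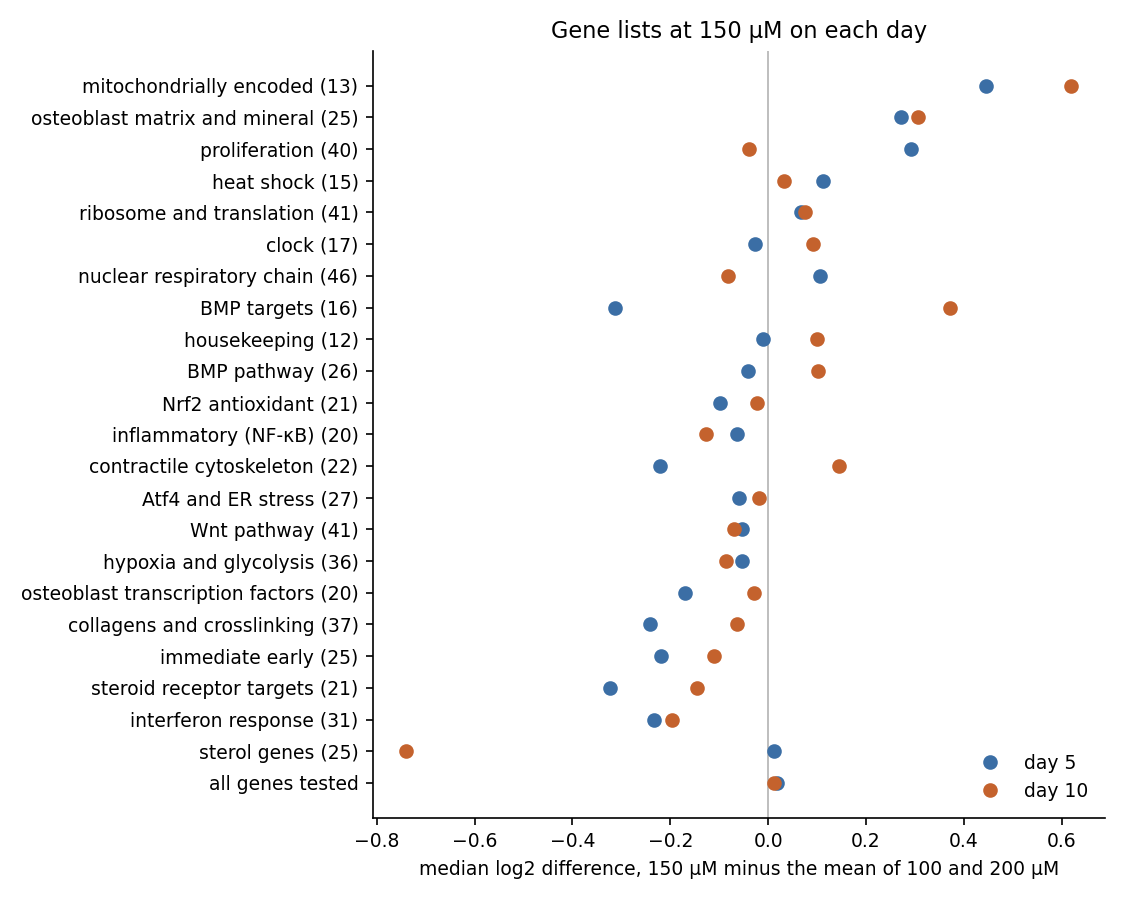
Median log2 difference of 150 µM from the mean of 100 and 200 µM for each gene list (number of genes tested in brackets) and for all genes tested, day 5 in blue and day 10 in orange, 1 library per dose and day. Sterol genes lay at -0.74 on day 10 and 0.013 on day 5, and mitochondrially encoded genes at 0.45 on day 5 and 0.62 on day 10.

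Pair by pair, more genes passed between 150 and 100 µM than between 150 and 200 µM. In an edgeR fit with a term per dose, 12 genes differed between 150 and 100 µM (0.072%), 5 higher and 7 lower, 2 between 150 and 200 µM (0.012%), and 1 between 200 and 100 µM (0.006%). The 3 comparisons share libraries, and whether the counts differ was not tested. All genes that passed were named after their values were seen. From 100 to 150 µM 5 rose, among them the new locus (log2 fold change 1.83, edgeR adjusted p = 0.043). Wif1, described above, rose as well (log2 fold change 1.51, edgeR adjusted p = 0.043). Ptgfr, the prostaglandin F receptor (chr3:151796502-151837630), had 60.4, 120.1 and 77.5 CPM at 100, 150 and 200 µM on day 5 and 116, 244 and 175 CPM on day 10 (log2 fold change 1.03, edgeR adjusted p = 0.043), against 29.8 and 21.2 CPM at 0 µM. Ramp1, which encodes a partner of the calcitonin gene-related peptide receptor, had 3.14, 14.6 and 8.4 CPM at 100, 150 and 200 µM on day 5 and 23.4, 61.6 and 54.4 CPM on day 10 (log2 fold change 1.76, edgeR adjusted p = 0.0471), against 21 and 0 counts at 0 µM. Cdsn, an adhesion protein of the epidermis, had 32.6, 58.5 and 53.1 CPM at 100, 150 and 200 µM on day 5 and 40, 83.4 and 69.3 CPM on day 10 (log2 fold change 0.96, edgeR adjusted p = 0.0457), against 15 and 15.2 CPM at 0 µM. In these 3 genes and in Wif1 the level at 200 µM lay between those at 100 and 150 µM on each day.

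From 100 to 150 µM 7 genes fell, among them the predicted gene Gm20431. Cd34, a cell surface sialomucin (chr1:194938819-194961279), had 356, 164 and 264 CPM at 100, 150 and 200 µM on day 5 and 376, 148 and 219 CPM on day 10 (log2 fold change -1.23, edgeR adjusted p = 0.043), against 170.3 and 205 CPM at 0 µM. Anpep, aminopeptidase N, had 103, 50.5 and 67.5 CPM at 100, 150 and 200 µM on day 5 and 123, 59.8 and 80.5 CPM on day 10 (log2 fold change -1.03, edgeR adjusted p = 0.043). Cacna1a, a calcium channel subunit, had 45.4, 17.2 and 29 CPM at 100, 150 and 200 µM on day 5 and 30.7, 12.9 and 17.4 CPM on day 10 (log2 fold change -1.32, edgeR adjusted p = 0.043). All 3 were lowest at 150 µM, with 200 µM in between on each day. H2-T23, a non-classical MHC molecule, had 50.7, 20.5 and 29.9 CPM at 100, 150 and 200 µM on day 5 and 48.1, 25.6 and 31.1 CPM on day 10 (log2 fold change -1.10, edgeR adjusted p = 0.0471). Stat2, a transducer of interferon signals, had 177, 94.3 and 134 CPM at 100, 150 and 200 µM on day 5 and 148, 87 and 109 CPM on day 10 (log2 fold change -0.83, edgeR adjusted p = 0.0471). Mtss1l had 275, 156 and 216 CPM at 100, 150 and 200 µM on day 5 and 348, 178 and 257 CPM on day 10 (log2 fold change -0.89, edgeR adjusted p = 0.0471). These 3 showed the same order of doses on each day. The counts depended on single libraries and on the tool. Between 150 and 100 µM the count was 27 without the day 5 library of 100 µM, 224 without that of 150 µM and 35 without that of 200 µM, and 0, 214 and 34 without the day 10 libraries in the same order, and 512 genes passed in DESeq2. For 150 against 200 µM the counts were 5, 29 and 7 without the day 5 libraries, 4, 30 and 5 without those of day 10, and 23 in DESeq2. For 200 against 100 µM they were 4, 20 and 9, then 3, 17 and 3, and 24 in DESeq2.

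Some of the pair calls concern predicted genes that overlap their neighbours on the same strand, where the reads of the overlapping genes cannot be told apart here. Gm38431 (chr9:21067514-21091997) spans Raver1 and Fdx1l and passed between 150 and 200 µM (log2 fold change -2.22, edgeR adjusted p = 0.00788) and between 200 and 100 µM (log2 fold change 2.54, edgeR adjusted p = 0.00389). It had 12, 13.2 and 72.8 CPM at 100, 150 and 200 µM on day 5 and 8.66, 12.3 and 48.9 CPM on day 10, while Raver1 had 84.5, 61.6 and 24 CPM on day 5 and 56.9, 60.1 and 23.2 CPM on day 10, in the same order of doses. Raver1 was low where Gm38431 was high, and the sum of the 3 genes was 102, 79.5 and 98.1 CPM on day 5 and 69.1, 76.8 and 72.7 CPM on day 10, a narrower range. At 0 µM Gm38431 had 114 CPM on day 5 and 16.3 on day 10, where Raver1 had 27.3 and 128 CPM. The predicted gene Gm49373 overlaps Gm38431 on the same strand as well and is not in the sum. Gm44503, which spans Dyx1c1 and Ccpg1, passed between 150 and 200 µM (edgeR adjusted p = 0.0433). It had 0 counts in the 100 and 150 µM libraries and 190 and 346 at 200 µM, so against a floor of 3 counts per library it was at least 126-fold lower at 150 µM on day 5 and at least 118-fold lower on day 10. The sum with Dyx1c1 and Ccpg1 was 74.4, 64.9 and 59.3 CPM on day 5 and 97.9, 85.6 and 87.9 CPM on day 10. Gm20431, which spans Ube2v1 and Tmem189, had 0 counts on day 5 at every treated dose and 227, 0 and 310 on day 10 (edgeR adjusted p = 0.0471 against 100 µM), at least 132-fold lower than the mean of the neighbours on day 10 by the same floor. With Ube2v1 and Tmem189 the sums were 123, 115 and 125 CPM on day 5 and 117, 114 and 121 CPM on day 10, so at the level of the whole locus the doses were close.

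The interaction of dose class and day was tested with 1 library at 150 µM per day, so its spread comes from 100 against 200 µM and a change of dose effect cannot be told apart from a single library that stands off. In edgeR 5 genes passed (0.03%), all in the downward direction, and all 5 were named after their values were seen. At an unadjusted p under 0.05 there were 410 genes upward and 470 downward, and DESeq2 passed 60. Phc3, a polycomb protein (chr3:30899371-30969415), had 55.9, 181 and 51.7 CPM at 100, 150 and 200 µM on day 5 and 50.8, 48 and 47.4 CPM on day 10. The 150 µM library stood far above its neighbours on day 5 and between them on day 10 (change of -1.79 log2 units from day 5 to day 10, edgeR adjusted p = 0.0317). Ube2v2, a ubiquitin-conjugating enzyme variant, had 14.3, 17.6 and 18.2 CPM at 100, 150 and 200 µM on day 5 and 11.7, 1.77 and 11.7 CPM on day 10, between its neighbours at 150 µM on day 5 and far below them on day 10 (change of -2.86 log2 units from day 5 to day 10, edgeR adjusted p = 0.042). Amd2, a copy of the S-adenosylmethionine decarboxylase gene, had 5.12, 35 and 7.19 CPM at 100, 150 and 200 µM on day 5 and 22.6, 5.64 and 17.5 CPM on day 10, highest at 150 µM on day 5 and lowest on day 10 (change of -4.34 log2 units from day 5 to day 10, edgeR adjusted p = 0.0139). Its counts are uncertain because Amd1 is nearly identical, and the sum of both was 98, 187 and 125 CPM on day 5 and 123, 92.3 and 111 CPM on day 10, again highest and then lowest at 150 µM. Gm45717, which spans Ifitm5 and Ifitm2 on the same strand, had 9.45, 67.5 and 6.96 CPM at 100, 150 and 200 µM on day 5 and 15.6, 0.0558 and 10.5 CPM on day 10, with 3 counts at 150 µM on day 10 (change of -10.83 log2 units from day 5 to day 10, edgeR adjusted p = 0.00105). On day 10 the ratio of 150 µM to the mean of the neighbours was 0.00428 (95% Poisson interval 0.000883 to 0.0125, which covers counting error only), and with Ifitm2 and Ifitm5 the sums were 310.4, 222 and 251 CPM on day 5 and 326, 192 and 263 CPM on day 10, in which 150 µM was lowest on both days. The new locus Mus_musculus_newGene_4242 had 45.1, 80.2 and 42.4 CPM at 100, 150 and 200 µM on day 5 and 51.9, 29.6 and 57.8 CPM on day 10 (change of -1.77 log2 units from day 5 to day 10, edgeR adjusted p = 0.0356). It was highest at 150 µM on day 5 and lowest on day 10. The count was 10 without the day 5 library of 100 µM and 1 without that of day 10.

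Measured from 0 µM, the totals of genes passing were close at 100 and 150 µM, and their order differed between tools and when a library was left out. Of 16794 genes tested in an edgeR fit of 8 libraries, 5747 passed at 100 µM (34.2%), with 2898 higher (17.3%) and 2849 lower (17%). At 150 µM 5736 passed (34.2%), with 2917 higher (17.4%) and 2819 lower (16.8%), and at 200 µM 5515 (32.8%), with 2893 higher (17.2%) and 2622 lower (15.6%). DESeq2 passed 6189, 6216 and 5951 in order of dose, and edgeR 5614, 5412 and 5231 after thinning, 5035, 5324 and 4891 without the 0 µM library of day 5 and 4101, 3738 and 3669 without that of day 10. The edgeR counts beyond 1 log2 unit were 1767, 1858 and 1831 higher and 934, 940 and 856 lower, in order of dose. The median absolute log2 fold change over all genes was 0.44, 0.44 and 0.42. Of the 4106 genes that passed at all 3 doses in 1 direction, the largest change was at 100 µM in 1701, at 150 µM in 1512 and at 200 µM in 893, and their median absolute log2 fold changes were 1.16, 1.09 and 1.11. By single libraries, genes more than 1 log2 unit from 0 µM of the same day numbered 3939, 3735 and 3864 on day 5 and 4712, 4528 and 4515 on day 10. At equal depth these were 3872, 3671 and 3793, and 4545, 4451 and 4440. On both days and at both depths 100 µM had the most. The 3 comparisons share the 0 µM libraries, and differences between these counts were not tested. A single library moved them by more: at 150 µM the count was 2639 without its day 5 library and 2563 without its day 10 library. At 100 µM it was 3528 and 2690 without its own libraries of day 5 and day 10, and at 200 µM 3177 and 2460.

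**Figure D4:**
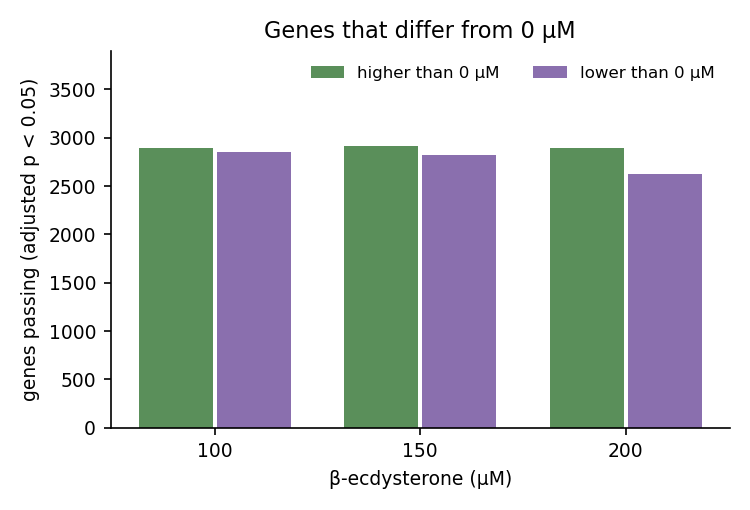
Genes passing an edgeR adjusted p of 0.05 as higher (green bars) or lower (purple bars) than 0 µM against the dose of β-ecdysterone in µM, 8 libraries, 16794 genes tested. The bars at 150 µM, 2917 and 2819 genes, were close to those at 100 µM, 2898 and 2849.

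By gene group the distance from 0 µM had different orders. Of the 13 mitochondrially encoded genes 1, 9 and 2 rose from 0 µM at 100, 150 and 200 µM, with median log2 fold changes of 0.39, 0.94 and 0.43. Over all genes 17.3%, 17.4% and 17.2% rose and 17%, 16.8% and 15.6% fell, in order of dose. Of 25 genes of osteoblast matrix and mineral 12, 14 and 13 rose and 2, 1 and 2 fell (medians 1.25, 2.07 and 1.67). For these groups the median was largest at 150 µM. Of 25 sterol genes 20, 21 and 20 fell (medians -1.28, -1.61 and -1.35), and of 40 proliferation genes 38, 37 and 38 fell (medians -1.73, -1.46 and -1.45). Of 31 interferon-response genes 12, 5 and 12 rose and 4, 4 and 2 fell (medians 0.35, -0.0079 and 0.22), the median at 150 µM being nearest to 0. The 8 osteogenic readout genes tested and Gapdh had 3, 3 and 3 that rose and 1, 1 and 2 that fell. A gene that passed at 1 dose and not at another is not shown to differ between the doses, and in edgeR 0 members of these lists passed between 150 µM and both neighbours together, while Stat2 of the interferon list passed between 150 and 100 µM.

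Which dose held the highest and the lowest level was counted gene by gene. Of the 16664 genes, 2943 were highest at 150 µM on both days (17.7%) and 2677 lowest (16.1%). At 100 µM the counts were 2621 and 2883, and at 200 µM 1360 and 1328, so 150 µM was an extreme about as often as 100 µM and more often than 200 µM. After thinning to equal depth the counts at 150 µM were 2858 and 2674. Scaling by library totals in place of TMM gave 2406 and 2863 at 150 µM, 2045 and 3461 at 100 µM and 1972 and 759 at 200 µM. These counts are descriptions without a test.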

How the data were processed

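Poly(A)-enriched RNA of 10 libraries was sequenced by the authors, whose submission names HISAT2 2.0.4 and GATK 3.2-2 in its processing notes without their roles. The deposited table gives reads per gene as counts, without normalization, for 22036 Ensembl genes and 7547 loci assembled by the authors. It also holds FPKM values by the authors, used here only to rank the mitochondrial genes. The authors' columns of edgeR comparisons between single libraries (fold changes, p-values and calls) were not used.

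Genes were filtered with edgeR's filterByExpr, scaled by TMM and tested with edgeR's quasi-likelihood test with a term for day and Benjamini-Hochberg adjustment over all genes tested, at an adjusted p of 0.05. Thinning kept each count at random with the probability that brings a library's expected total to 27108562, the smallest of totals that reached 58218009, and gave totals from 27107324 to 27110853. The tools were R 4.3.3, edgeR 4.0.16, limma 3.58.1, DESeq2 1.42.0, Python 3.11.15, pandas 2.3.3, scipy 1.17.1 and matplotlib 3.10.9. The scripts were tested on simulated data. Alternatives were other scalings, filters, tools and covariates and leaving out each library. The 2 untreated libraries were left out because their labels give no day.

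Genes were named by rule: those behind the study's readouts with its reference gene, up to 10 passing genes with a symbol in each direction (mean level of 1 CPM or more, beyond both other doses on both days), up to 2 passing members of each list or else the member with the smallest p, and the 3 most abundant mitochondrial genes. Genes outside this rule, among them Clec11a, Rhob, Zfp703, Sqle and Gm7324, were named after their values were seen. The members and lists were chosen with earlier results of these data known. A result is not reported here.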

Additional observations from a re-analysis of the deposited data

Results flagged for a closer look

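Among the 4 libraries of 100 and 200 µM, the total of the 200 µM library of day 10, 53666325 counts, lay far from the other 3 (Dixon's ratio 0.897, above its 95% critical value). Chance alone marks about 1 in 20 such groups, and several other measures were screened on the same libraries. None of those, genes detected (0.756) and the mitochondrial share (0.262) among them, exceeded the critical value.

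The difference of 150 µM from its neighbours, in log2 units, was not the same on day 5 and day 10 in 5 genes by edgeR's test of the interaction, which has 1 library at 150 µM per day, and the count was 10 without the 100 µM library of day 5 and 1 without that of day 10. Day 10 minus day 5 was -4.34 for Amd2, -10.83 for Gm45717, -1.77 for Mus_musculus_newGene_4242, -1.79 for Phc3 and -2.86 for Ube2v2, and the cause was not tested.

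The untreated libraries, which no comparison used, held mitochondrial shares of 5.45% and 5.98% of the counts, above the 4.53% of the 0 µM libraries. How untreated cells differ from those at 0 µM is not given in the labels.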

How the results depend on the processing

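The count of genes that passed depended on the processing, and the cause was not tested. Where 1 higher and 0 lower genes had passed, DESeq2 gave 65 and 156, library totals without TMM 2 and 1, no filter beyond 1 count in total 14 and 14, thinning to equal depth 2 higher, and limma voom, chosen after seeing the data, 2 higher. With Ensembl genes alone, which leaves the new locus out, 0 passed as higher, and without the replicate block (the day term) 0 passed as higher as well. In DESeq2 60 genes passed for the change between days, 512 for 150 against 100 µM, 23 for 150 against 200 µM and 24 for 200 against 100 µM, and after thinning the pairs gave 23, 4 and 3.

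Leaving out each library in turn gave 0 to 4 higher and 0 to 5 lower genes. For the change between days, leaving out each library of 100 or 200 µM, chosen after seeing the data, gave 1 to 10 genes, and with a 150 µM library left out it cannot be fitted. Leaving out each of the 6 libraries, again chosen after seeing the data, gave 0 to 224 genes for 150 against 100 µM, 4 to 30 for 150 against 200 µM and 3 to 20 for 200 against 100 µM. Against 0 µM, leaving out each of the 8 libraries gave 2690 to 5089 genes at 100 µM, 2563 to 5324 at 150 µM and 2460 to 4918 at 200 µM. The difference in mitochondrial share ranged from 1.34 to 3.54 percentage points. A group left with 1 library was assumed to vary like the others.

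The log2 fold change at 150 µM of Col1a2 was 0.044 without the replicate block and 0.032 with depth class as a covariate, against -0.033 as reported. That covariate, chosen after seeing the data, also reversed Gapdh (0.015), Ibsp (-0.011), Lyz2 (0.0087), Mus_musculus_newGene_4242 (-0.37), Smad5 (-0.050) and Sp7 (-0.0059). With libraries left out, these genes took both signs or reached 0: -1.82 to 2.50 for Amd2, -0.13 to 1.42 for Cdh1, -0.73 to 0.27 for Col1a1, -0.48 to 0.36 for Col1a2, -11.15 to 0 for Gm20431, -7.78 to 3.04 for Gm45717, -0.10 to 0.41 for mt-Nd3, -0.89 to 0.87 for Mus_musculus_newGene_4242, -0.030 to 1.75 for Phc3, -0.12 to 0.073 for Runx2, -0.071 to 0.16 for Smad5, -0.035 to 0.54 for Sp7, -1.04 to 0.13 for Sqle and -2.72 to 0.12 for Ube2v2.

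Each dose and day had 1 library, so an effect of dose cannot be told apart from one of the library. The 150 µM libraries were the deepest on both days, and depth and dose are separated only by the 200 µM library of day 10. Low counts limit what can be seen: 3 counts were 0.0515 to 0.111 CPM of the unscaled totals of these 6 libraries. The counts of overlapping predicted genes depend on how reads were assigned, which the sources used here do not give.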

Other observations

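The locus Mus_musculus_newGene_4672 had 1663 and 691 counts in the untreated libraries, whose totals were 28772087 and 29789271 counts.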
